A study of Homo sapiens with 6 samples.

Results

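The KLF transcription factor family was examined in RNA sequencing of U251, an established human glioma cell line, in 3 libraries of untreated control cells and 3 libraries of cells exposed to sevoflurane (Sev), a volatile anesthetic, for 2 h. The 10 genes, KLF2, KLF3, KLF4, KLF5, KLF6, KLF7, KLF9, KLF10, KLF11 and KLF13, were taken by name from 61496 features, and all 10 passed the expression filter that left 27514 features to test. The deposited protocol lists several concentrations and the labels assign none to a library, while the legend of the study for its plot of the sequencing data names the highest, 5.1%. Both groups were the same cell line in the same medium. The study describes its quantitative data in general as from independent experiments, and neither labels nor methods say whether the sequenced replicates came from separate cultures, so that p-values measure the spread between these libraries. In bulk RNA, fewer cells with a transcript and less of it per cell cannot be told apart.

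The KLF genes encode nuclear proteins that bind GC-rich and CACCC sequences through C2H2 zinc fingers at their C terminus, a domain shared with the SP factors. Their N-terminal parts differ and sort the family by the partners they recruit. KLF2, KLF4, KLF5, KLF6 and KLF7 bind histone acetyltransferases and mostly activate transcription. KLF3, like KLF8 and KLF12, binds the corepressor CtBP, and KLF9, KLF10, KLF11 and KLF13, like KLF14 and KLF16, bind the corepressor SIN3A. Several are early-response genes whose mRNA is short-lived, and in neural tissue they are known for roles in proliferation, neurite growth and stress.

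Among the 10 genes, KLF3, KLF5, KLF7, KLF10 and KLF11 were higher in Sev and KLF2 was lower, at an adjusted p under 0.05. KLF4, KLF6, KLF9 and KLF13 did not pass the test. The test was edgeR's quasi-likelihood test over all 27514 features with Benjamini-Hochberg adjustment. The 5 genes that rose were 50% of the family, against 22.1% of all tested features and 25% of tested protein-coding genes. The 1 gene that fell was 10% of the family, against 21.5% of all tested features and 21% of tested protein-coding genes. The median log2 fold change was 0.50 over the 10 genes, −0.0056 over all tested features and 0.038 over protein-coding genes. With the threshold in the methods of the study, an absolute log2 fold change above 1 at an unadjusted p under 0.05, KLF3, KLF7, KLF10 and KLF11 passed upward and KLF2 downward, 4 and 1 of 10, where 11.4% and 12% of all features did. The Sev and control libraries did not overlap for the same 5 and 1 genes, a separation that 28.3% of all features had upward and 28.2% downward.

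**Figure D1:**
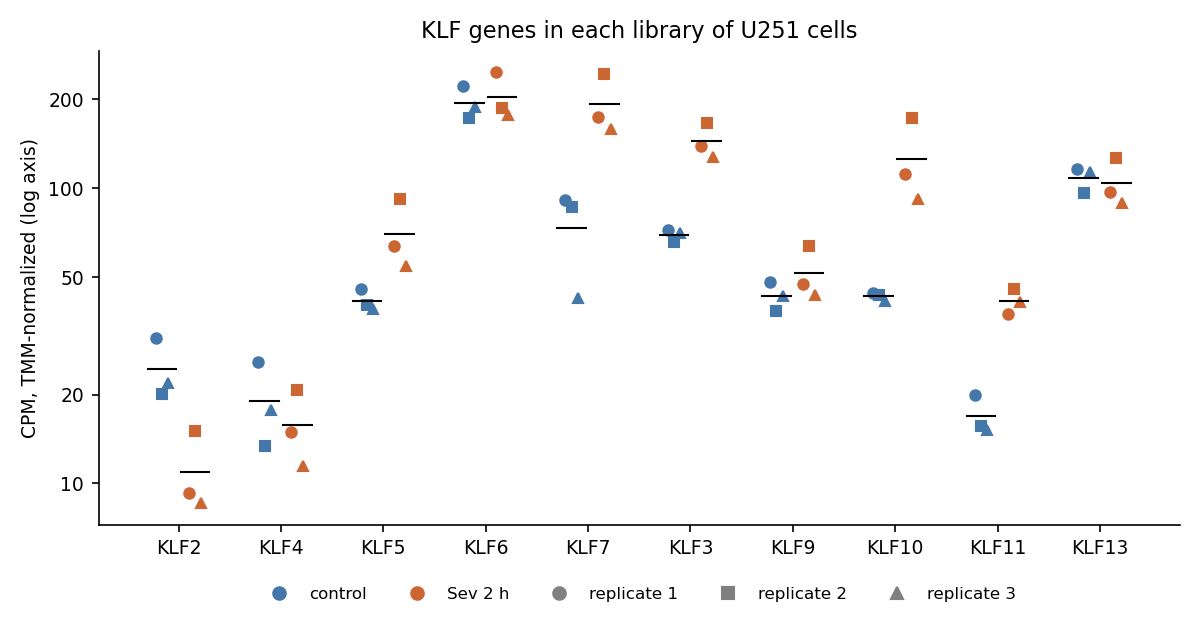
Normalized counts of the 10 KLF genes in each library, as CPM (counts scaled to a common library size) on a log axis, with control libraries in blue, Sev libraries in orange, marker shapes for the replicate number and a line at each group mean. The Sev libraries lie above all control libraries for KLF5, KLF7, KLF3, KLF10 and KLF11, and below them for KLF2.

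The libraries held 38624292 to 46318311 counts, and TMM factors were 1.03 to 1.08 in control and 0.918 to 0.988 in Sev libraries. The first principal component, with 69% of the variance, separated the groups. Control replicate 1 was the highest control library for 10 of the 10 KLF genes, a place it took for 37.4% of all tested features. Sev replicate 2 was the highest Sev library for 9 of the 10, against 37.5% of all features, and Sev replicate 3 the lowest for 9, against 35.4%. The values of single libraries and of leaving them out are therefore given where they matter. Counts also followed GC content, with a log2 change of −0.072 to −0.11 per 10 points of GC in control libraries and 0.057 to 0.14 in Sev libraries. With each library's trend on GC content and length removed, the same 5 KLF genes rose and KLF2 fell; KLF2, the most GC-rich of the 10 at 65.9%, then had a log2 fold change of −1.48.

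Of 11 marker genes of glioma and astroglial cells, 9 passed the filter, with a summed FPKM (fragments scaled by gene length and library size) of 1301 to 1516 in control and 1303 to 1414 in Sev libraries. VIM alone made up 905 FPKM in control and 918 in Sev of these sums. Single markers moved, with SOX2 (log2 fold change −0.72, adjusted p = 0.000367, edgeR) and S100B (−1.10, adjusted p = 0.00215, edgeR) lower and CD44 (0.97, adjusted p = 0.000174, edgeR) higher in Sev. AQP4 and ALDH1L1 had at most 17 counts in any library. Of other cell types, the summed FPKM of 7 endothelial markers was 6.05 to 6.50 in control and 7.35 to 8.73 in Sev libraries, of 4 neuronal markers 15.9 to 21.1 and 25.9 to 27.3, and of 6 fibroblast and mural markers 87.4 to 107 and 60.1 to 75.9. The endothelial sum was mostly KDR, at 4.33 FPKM in control and 5.63 in Sev, and the neuronal sum mostly TUBB3, at 16.1 and 23.5. The fibroblast and mural sum was mostly COL1A2, at 94.2 FPKM in control and 63.6 in Sev. The sums of 6 epithelial markers were 7.18 to 9.71 and 7.81 to 9.44, of 6 myeloid and lymphoid markers 1.47 to 2.50 and 2.49 to 2.94, with CD3E and AIF1 at 0 counts, and of 4 oligodendroglial markers 1.10 to 1.40 and 0.663 to 0.783. Of tested genes, 3 of 6 endothelial and 2 of 4 neuronal markers were called higher and 0 lower. Of 4 fibroblast and mural and of 3 oligodendroglial markers, 1 each was called higher and 1 lower. Of 2 epithelial and of 2 myeloid and lymphoid markers, 1 each was called higher and 0 lower. Of all tested features 22.1% were called higher and 21.5% lower. The part of these shifts in the KLF values was not tested.

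Start regions of 4 KLF genes that moved are shown for their GC boxes, the sequence to which KLF and SP factors themselves bind. The windows below run from 250 bases before to 50 bases after an annotated start (RefSeq, GRCh38.p14), read on the strand of the gene, with matches to the GC box GGGCGG and the cyclic AMP response element TGACGTCA in capitals, on either strand. For KLF11, KLF7 and KLF5, which have several windows, the window with the most matches is shown. KLF3 has no window in the table used, and the window of KLF10, which also rose, was not used here.
KLF11, chr2:10043971-10044270, plus strand: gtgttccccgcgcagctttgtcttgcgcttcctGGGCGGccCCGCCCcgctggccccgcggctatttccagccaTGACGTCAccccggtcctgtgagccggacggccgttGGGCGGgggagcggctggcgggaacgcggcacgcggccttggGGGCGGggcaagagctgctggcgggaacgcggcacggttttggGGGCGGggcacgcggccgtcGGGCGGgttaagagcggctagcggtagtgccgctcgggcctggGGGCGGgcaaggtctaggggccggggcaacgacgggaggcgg
KLF7, chr2:207166807-207167106, minus strand: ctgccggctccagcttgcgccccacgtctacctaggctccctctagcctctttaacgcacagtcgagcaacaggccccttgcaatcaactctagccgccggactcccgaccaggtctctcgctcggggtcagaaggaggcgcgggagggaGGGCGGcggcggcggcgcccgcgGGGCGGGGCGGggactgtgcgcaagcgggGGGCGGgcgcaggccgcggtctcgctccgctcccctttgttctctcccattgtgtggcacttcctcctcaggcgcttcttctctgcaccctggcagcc
KLF5, chr13:73058755-73059054, plus strand: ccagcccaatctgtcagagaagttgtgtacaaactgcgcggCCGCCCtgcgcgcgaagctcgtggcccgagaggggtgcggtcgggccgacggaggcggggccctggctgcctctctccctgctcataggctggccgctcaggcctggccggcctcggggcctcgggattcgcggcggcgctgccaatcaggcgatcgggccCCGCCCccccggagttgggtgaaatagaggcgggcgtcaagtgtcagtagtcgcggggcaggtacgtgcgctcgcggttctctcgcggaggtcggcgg
KLF2, chr19:16324576-16324875, plus strand: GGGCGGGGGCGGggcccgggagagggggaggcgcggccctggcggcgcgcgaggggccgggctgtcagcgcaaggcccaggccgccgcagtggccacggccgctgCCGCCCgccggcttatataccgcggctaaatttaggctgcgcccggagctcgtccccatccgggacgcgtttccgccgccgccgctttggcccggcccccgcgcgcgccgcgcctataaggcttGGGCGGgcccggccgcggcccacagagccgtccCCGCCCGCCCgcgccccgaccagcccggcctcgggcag

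The KLF11 window shown holds 7 GC boxes, the KLF2 window 6, the KLF7 window 4 and the KLF5 window 2, counts that for KLF11, KLF7 and KLF5 follow from the choice of window. The other KLF11 window holds 2, and the other KLF5 window and the other KLF7 windows hold 0. GC boxes were also present in KLF genes that did not pass the test, with 4 for KLF4, 3 for KLF13 and 2 for KLF6, while KLF9 had 0. Over all 13 windows of the 8 KLF genes used, which leave out KLF3 and KLF10, 8 held the 6 letters, which occur in 45% of 35116 windows of 27305 genes. The KLF11 window also holds the full TGACGTCA, a sequence present in 1.85% of all windows. Its first 6 letters TGACGT, which occur in 7.98%, were also present in the window of KLF13, which did not pass the test. Among the 13 windows, the E-box CACGTG, found in 7.26% of all windows, was present in 1 window each of KLF4, KLF6, KLF7 and KLF11. The CACCC box CCACCC, found in 34.3%, was present in another KLF7 window and in the KLF13 window, where it overlaps a GC box, and the AP-1 sequence TGACTCA, found in 4.95%, in none of the 13. GC content was 75.3% in the KLF11 window shown, 80.7% in that of KLF2, 70% in that of KLF7 and 71.3% in that of KLF5, against a median of 58.7% over all windows. For KLF11, KLF7 and KLF5 these values also depend on the choice of window. GC content was 77.3% in the other KLF11 window, 56.7%, 42.7% and 43% in the other KLF7 windows and 40.7% in the other KLF5 window.

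Of the clade of activators, 2 of 5 genes rose and 1 fell, where 22.1% of all tested features rose and 21.5% fell, and with so few genes nothing is read from the clade. KLF7 (ENSG00000118263, chr2:207074137-207167267, minus strand), a factor of neuronal differentiation and axon growth, was measured at 91.4, 86.1 and 42.4 CPM in the control libraries and at 175, 244 and 159 CPM in the Sev libraries. Every Sev library lay above every control library, and control replicate 3 was the lowest by far. The log2 fold change was 1.39 (SE 0.29, 95% interval 0.72 to 2.06, adjusted p = 0.00644, edgeR, n = 3 per group), a 2.63-fold rise, and between 1.11 and 1.57 over 16 alternative settings.

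KLF5 (ENSG00000102554, chr13:73054976-73077542, plus strand), which drives proliferation in epithelium and smooth muscle, was measured at 45.5, 40.4 and 39.0 CPM in control and at 63.8, 91.8 and 54.4 CPM in Sev libraries. The groups did not overlap, and Sev replicate 2 stood above the other Sev libraries. The rise was the smallest of the 5, with a log2 fold change of 0.75 (SE 0.18, 95% interval 0.32 to 1.18, adjusted p = 0.0130, edgeR, n = 3 per group). Without control replicate 3 its adjusted p was 0.0508, and without Sev replicate 2 the log2 fold change was 0.51 (adjusted p = 0.0118).

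KLF2 (ENSG00000127528, chr19:16324817-16327874, plus strand), a factor of quiescence best known in endothelium and T cells, was the only gene of the 10 that fell. It was measured at 31.2, 20.1 and 21.9 CPM in control and at 9.29, 15.0 and 8.58 CPM in Sev libraries. No Sev library reached the lowest control library, and Sev replicate 2 was again the highest of its group. The log2 fold change was −1.15 (SE 0.25, 95% interval −1.74 to −0.57, adjusted p = 0.00792, edgeR, n = 3 per group), a 2.23-fold lower level. Leaving out 1 library gave −0.95 (without control replicate 1, its highest library) to −1.44 (without Sev replicate 2), below a 2-fold change without control replicate 1.

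KLF4 (ENSG00000136826, chr9:107484852-107490482, minus strand), a pluripotency factor and the gene closest to KLF2 in function in endothelium, was measured at 25.8, 13.4 and 17.8 CPM in control and at 14.9, 20.8 and 11.5 CPM in Sev libraries. These overlapped, with a log2 fold change of −0.27 (SE 0.28, 95% interval −0.92 to 0.38, adjusted p = 0.467, edgeR, n = 3 per group). Without control replicate 1, the highest library, it was 0.0059, so that its sign rested on that library. KLF6 (ENSG00000067082, chr10:3775996-3785281, minus strand), an injury-response gene with splice forms of opposite effect on growth, was measured at 223, 173 and 189 CPM in control and at 247, 187 and 176 CPM in Sev libraries. Its log2 fold change was 0.062 (SE 0.15, 95% interval −0.28 to 0.40, adjusted p = 0.760, edgeR, n = 3 per group). The sign of KLF6 turned under 6 of the 16 settings, which ranged from −0.10 to 0.16, and changes of over 0.40 in log2 lie outside its interval.

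KLF3 (ENSG00000109787, chr4:38664196-38701042, plus strand), the repressor that recruits CtBP, had the narrowest interval of the 10 genes. It was measured at 72.1, 65.7 and 70.5 CPM in control and at 139, 167 and 128 CPM in Sev libraries. The control libraries lay close together and all Sev libraries were far above them. The log2 fold change was 1.06 (SE 0.11, 95% interval 0.80 to 1.31, adjusted p = 0.000378, edgeR, n = 3 per group), a 2.08-fold rise, and between 0.83 and 1.14 over the 16 settings.

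Of the clade that binds SIN3A, 2 of 4 genes rose and 0 fell, against 22.1% and 21.5% of all tested features. Those that rose were the TGF-beta-inducible early genes KLF10 and KLF11. KLF10 (ENSG00000155090, chr8:102648779-102655902, minus strand), a repressor of growth induced by TGF-beta, was measured at 44.0, 43.6 and 41.4 CPM in control and at 112, 173 and 91.7 CPM in Sev libraries. The control libraries were nearly equal, and the lowest Sev library was above all of them. The log2 fold change was 1.54 (SE 0.21, 95% interval 1.05 to 2.04, adjusted p = 0.00114, edgeR, n = 3 per group), a 2.92-fold rise and the highest estimate of the family. Without Sev replicate 2, its highest library, it was 1.24 (adjusted p = 0.000502).

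KLF11 (ENSG00000172059, chr2:10042849-10054836, plus strand), its closest relative, was measured at 20.0, 15.7 and 15.1 CPM in control and at 37.5, 45.7 and 41.0 CPM in Sev libraries. The groups were well apart. The log2 fold change was 1.29 (SE 0.14, 95% interval 0.97 to 1.61, adjusted p = 0.000407, edgeR, n = 3 per group), a 2.44-fold rise. The intervals of KLF10 and KLF11 overlap, and the difference between these genes was not tested.

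KLF9 (ENSG00000119138, chr9:70384597-70414624, minus strand), a target of glucocorticoid and thyroid hormone receptors, was measured at 48.0, 38.5 and 43.2 CPM in control and at 47.5, 63.5 and 43.4 CPM in Sev libraries. The groups overlapped, with a log2 fold change of 0.25 (SE 0.15, 95% interval −0.11 to 0.61, adjusted p = 0.223, edgeR, n = 3 per group). KLF13 (ENSG00000169926, chr15:31326855-31435665, plus strand), known from T cells and heart development, was measured at 116, 96.6 and 113 CPM in control and at 97.2, 126 and 89.2 CPM in Sev libraries. These values also overlapped, with a log2 fold change of −0.058 (SE 0.14, 95% interval −0.38 to 0.27, adjusted p = 0.764, edgeR, n = 3 per group).

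**Figure D2:**
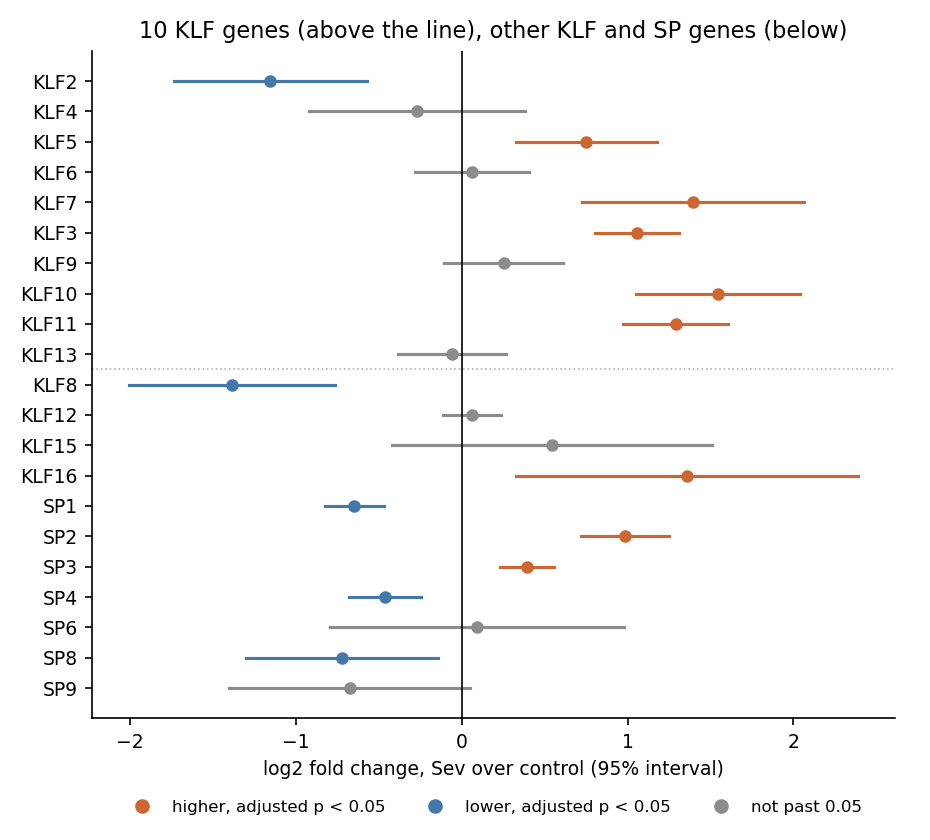
Log2 fold change of Sev over control with its 95% interval for the 10 KLF genes (above the dotted line) and for the other KLF and SP genes that passed the filter (below it), with genes at an adjusted p under 0.05 in orange where higher and in blue where lower. KLF10 has the highest estimate, 1.54, and KLF8 the lowest, −1.39.

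Per length, in the deposited FPKM, KLF6 was the most abundant of the 10 in control cells at 27.0 ± 4.11 FPKM (SD, n = 3), and its lowest control library was above the highest of any other KLF gene. KLF2 followed at 10.3 ± 2.74 FPKM, KLF13 at 9.79 ± 1.11, KLF5 at 9.62 ± 0.982, KLF10 at 9.56 ± 0.426 and KLF3 at 8.72 ± 0.583 FPKM. Each neighbour in this order overlapped the next. KLF9 at 7.11 ± 0.930 FPKM lay below all KLF3 libraries, and KLF7 at 6.73 ± 2.51, KLF4 at 4.41 ± 1.56 and KLF11 at 3.13 ± 0.558 FPKM each overlapped its neighbour.

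In Sev cells the order was KLF6 at 25.5 ± 4.78 FPKM, KLF10 at 25.1 ± 7.62, KLF3 at 16.4 ± 1.73, KLF7 at 15.9 ± 3.21, KLF5 at 14.5 ± 3.55, KLF13 at 8.46 ± 1.31, KLF9 at 7.61 ± 1.31, KLF11 at 6.92 ± 0.573, KLF2 at 4.15 ± 1.20 and KLF4 at 3.27 ± 0.872 FPKM. KLF6 and KLF10 overlapped. All KLF10 libraries lay above those of KLF3, all of KLF5 above those of KLF13, and all of KLF11 above those of KLF2, while the other neighbours overlapped. KLF2 thus went from the second place to the ninth in these means and KLF10 from the fifth to the second. The 10 genes summed to 96.4 ± 13.7 FPKM in control and 128 ± 19.9 FPKM in Sev libraries. Of that sum KLF6 held 28.0% ± 0.953 and 20.3% ± 4.82, KLF10 held 10.0% ± 1.02 and 19.3% ± 2.84, and KLF2 held 10.6% ± 1.25 and 3.21% ± 0.455. FPKM values scale by library size alone, which moved the log2 fold change of the median feature by −0.14 against TMM.

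**Figure D3:**
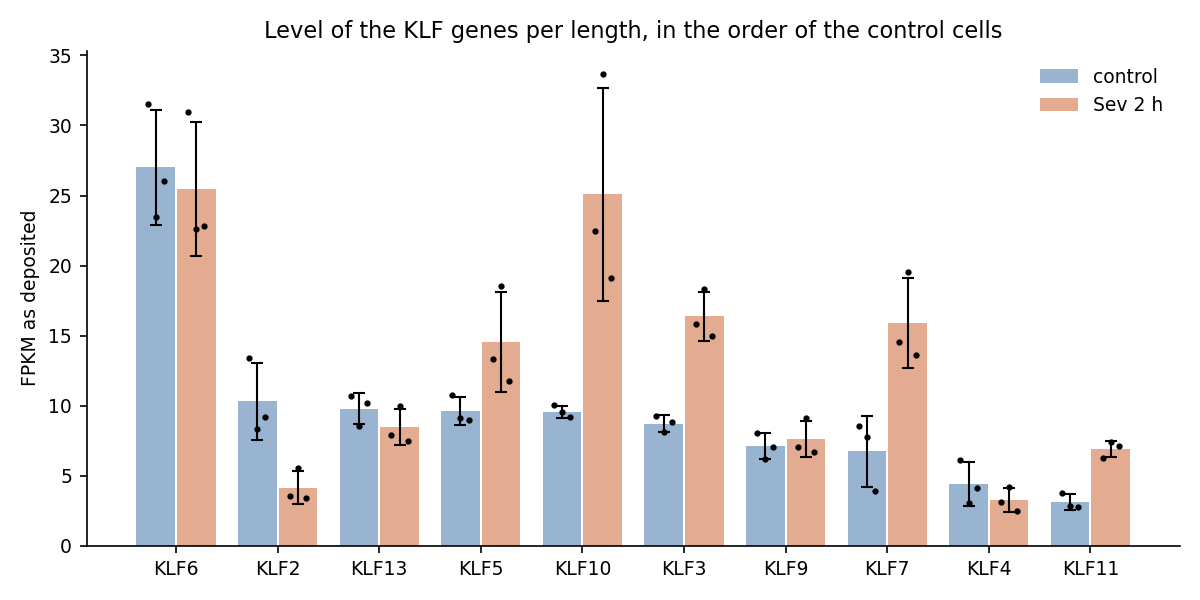
Level per length of the 10 KLF genes in FPKM as deposited, ordered by the control mean, with bars for the mean, error bars for the SD of 3 libraries and a point for each library. KLF6 is the highest in both groups, and KLF10 reaches 25.1 FPKM in Sev against 9.56 in control.

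Transcripts from the KLF genes' own loci were measured beside them. KLF7-IT1, which lies in an intron of KLF7 on the same strand, was at 3.05, 3.08 and 2.90 CPM in control and at 5.71, 7.35 and 5.10 CPM in Sev libraries, a log2 fold change of 1.01 (adjusted p = 0.00340, edgeR). It rose with its host, but control replicate 3, which was low for KLF7, was not low for KLF7-IT1. MIR2355 (ENSG00000253008), a microRNA gene within KLF7 on the same strand, had 20, 10 and 26 counts in control and 42, 59 and 33 in Sev libraries, a log2 fold change of 1.46 (adjusted p = 0.0153, edgeR). It was picked out after its values were seen, and counts of its locus do not measure the mature microRNA. Reads from unspliced KLF7 RNA cannot be told apart from either transcript. KLF3-AS1, which overlaps exons of KLF3 on the opposite strand, had 73 to 156 counts and a log2 fold change of 0.030 (adjusted p = 0.948, edgeR), with signs that turned between settings. The library kit marked strand, but whether the counting used it is not given in the sources used here.

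Of 26 features whose start lies within 50 kb of the start of a KLF gene, 6 passed the filter and 2 were called, both higher, against 22.1% of all tested features, namely KLF7-IT1 and ENSG00000283959, while the 20 untested had at most 12 counts in any library. ENSG00000283959, a non-coding transcript that starts 562 bases from KLF10 in the other direction, had 21 to 48 counts. Its log2 fold change was 0.88 (adjusted p = 0.0388, edgeR), and the call was lost on leaving out any library but Sev replicate 3 (adjusted p = 0.0783 to 0.113). Of the 14 alternative settings in which ENSG00000283959 was tested, it was called in 3. Pseudogene copies can take reads from their parent genes. KLF4P1, a processed copy of KLF4, had 27 to 43 counts in control and 104 to 137 in Sev libraries, a log2 fold change of 2.03 (adjusted p = 0.000450, edgeR), while KLF4 itself did not pass the test. KLF4P1 lies in an intron of RCL1 on the opposite strand, and RCL1 rose as well, from 11.9 ± 0.250 to 21.7 ± 1.30 CPM (log2 fold change 0.87, adjusted p = 0.000620, edgeR, n = 3 per group), so that its reads are uncertain. KLF3P1 had 43 to 71 counts and a log2 fold change of −0.37 (adjusted p = 0.239, edgeR).

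Of the 8 other KLF genes, 4 passed the filter. KLF8, another CtBP-binding repressor and a factor of invasion, was at 2.41, 1.54 and 1.59 CPM in control and at 0.611, 0.692 and 0.808 CPM in Sev libraries. It fell by 1.39 on the log2 scale (adjusted p = 0.00480, edgeR), from 61 to 102 counts to 23 to 32 counts, the opposite direction to KLF3. KLF12, the other CtBP-binding gene, was at 51.3 ± 0.509 CPM in control and 53.5 ± 1.98 in Sev libraries (log2 fold change 0.062, 95% interval −0.11 to 0.24, adjusted p = 0.541, edgeR, n = 3 per group). KLF16, of the SIN3A-binding clade, was at 28.5, 12.1 and 22.4 CPM in control and at 76.1, 62.4 and 23.2 CPM in Sev libraries. Its log2 fold change was 1.36 (adjusted p = 0.0398, edgeR), but Sev replicate 3 lay among the control libraries, and the call was lost on leaving out any library but that one (adjusted p = 0.0528 to 0.126). KLF15 had 17 to 51 counts and did not pass the test, and KLF1, KLF14, KLF17 and KLF18 had at most 11 counts in any library.

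The SP genes, which share the zinc-finger domain and compete for the same GC boxes, moved in both directions, with 2 higher (28.6%) and 3 lower (42.9%) of 7 tested, against 22.1% and 21.5% of all tested features, and a median log2 fold change of −0.46. SP1, the ubiquitous activator, was at 147, 147 and 151 CPM in control and at 89.2, 93.3 and 101 CPM in Sev libraries, a log2 fold change of −0.65 (adjusted p = 0.000625, edgeR). SP3, its close relative, was at 155, 167 and 155 CPM in control and at 208, 213 and 206 CPM in Sev libraries, a log2 fold change of 0.39 (adjusted p = 0.00341, edgeR). The libraries of a group lay close together for both genes, which moved in opposite directions. SP2 rose (0.98, from 25.6 ± 3.25 to 50.6 ± 3.17 CPM, adjusted p = 0.000575 by edgeR) and SP4, a neuronal member, fell (−0.46, from 24.8 ± 0.897 to 18.0 ± 0.647 CPM, adjusted p = 0.00588 by edgeR). SP8 fell at 39 to 106 counts (−0.72, adjusted p = 0.0483 by edgeR), a call lost on leaving out any library but Sev replicate 2 (adjusted p = 0.0745 to 0.137).

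Of the partners that KLF proteins recruit, 3 of 14 corepressor and 3 of 4 coactivator genes passed the test. Of the corepressor genes 1 rose and 2 fell (7.14% and 14.3%, against 22.1% and 21.5% of all tested features), with a median log2 fold change of 0.078. SAP18 (0.52, adjusted p = 0.00396) rose, while SIN3B (−0.40, adjusted p = 0.00505) and SAP30 (−0.48, adjusted p = 0.0399), all of the SIN3 complex, fell by edgeR's test. Of the 4 coactivator genes, the acetyltransferases EP300 (0.61, adjusted p = 0.000770) and CREBBP (0.58, adjusted p = 0.00309) rose and KAT2A (−0.36, adjusted p = 0.0426) fell by edgeR's test. These were 2 and 1 of 4 (50% and 25%, against 22.1% and 21.5% of all tested features). The call of SAP30 was lost on leaving out any library but Sev replicate 2 (adjusted p = 0.0573 to 0.121), and that of KAT2A on leaving out any but control replicate 2 (adjusted p = 0.0609 to 0.127).

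Genes for the turnover of KLF proteins were higher in 8 and lower in 1 of 12 (66.7% and 8.33%, against 22.1% and 21.5% of all tested features), with a median log2 fold change of 0.41. The count of higher genes was 5 when scaled by library size alone and 4 by limma on FPKM. The ubiquitin ligase SMURF1, which marks KLF2 for degradation, was at 99.9, 100 and 102 CPM in control and at 217, 236 and 204 CPM in Sev libraries. That is a log2 fold change of 1.12 (adjusted p = 0.000108, edgeR) with groups far apart. SMURF2 (0.85, adjusted p = 0.00249) and the deubiquitinase BAP1, which stabilizes KLF5 (0.45, adjusted p = 0.00301), also rose by edgeR's test, and the ligase subunit BTRC fell (−0.43, adjusted p = 0.00371). The ligase gene WWP1 was higher as well (0.37, adjusted p = 0.0355, edgeR), while FBXW7 did not pass the test (0.11, adjusted p = 0.486, edgeR). Protein levels were not measured in these libraries.

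Among 21 upstream regulators, 9 rose and 3 fell (42.9% and 14.3%, against 22.1% and 21.5% of all tested features), with a median log2 fold change of 0.30. In the TGF-beta pathway that induces KLF10 and KLF11, TGFBR2, the type II receptor, was at 131, 137 and 140 CPM in control and at 242, 282 and 201 CPM in Sev libraries (log2 fold change 0.83, adjusted p = 0.00156, edgeR). SMAD3 rose with values that hardly differed within a group, from 245 ± 0.296 to 327 ± 7.75 CPM (0.41, adjusted p = 0.00229, edgeR, n = 3 per group). SMAD4 was higher (0.46, adjusted p = 0.0220, edgeR), a call lost without control replicate 3 (adjusted p = 0.0544) or Sev replicate 1 (adjusted p = 0.0730), with library size only (adjusted p = 0.0967) and by limma on FPKM (adjusted p = 0.120 to 0.175). The type I receptor gene TGFBR1 was at 54.3, 54.0 and 56.4 CPM in control and at 75.9, 39.1 and 40.2 CPM in Sev libraries, with overlapping groups (−0.086, adjusted p = 0.796, edgeR). Without Sev replicate 1, its highest library, it was at −0.47 (adjusted p = 0.0134). SMAD2 was lower (−0.23, adjusted p = 0.0335, edgeR), a call lost on leaving out any library but Sev replicate 2 (adjusted p = 0.0548 to 0.123), and its log2 fold change was −0.013 (adjusted p = 0.904) with the GC and length trend removed. The thyroid hormone receptor THRB, an inducer of KLF9, rose from 10.1 ± 2.27 to 22.6 ± 0.414 CPM (1.17, adjusted p = 0.00119, edgeR, n = 3 per group), where KLF9 did not pass the test. MAP2K5, the kinase above ERK5 in the pathway that induces KLF2 and KLF4, was at 22.9, 22.7 and 23.1 CPM in control and at 14.3, 14.5 and 13.5 CPM in Sev libraries (−0.70, adjusted p = 0.00112, edgeR). The other genes of that pathway did not pass the test. MAPK7, which encodes ERK5, was at 19.0 ± 3.17 CPM in control and 25.2 ± 2.41 in Sev libraries with groups that did not overlap (0.40, adjusted p = 0.0523, edgeR, n = 3 per group). Of its targets, MEF2D was at 0.30 with groups that did not overlap (adjusted p = 0.0597, edgeR), MEF2A at 0.039 (adjusted p = 0.904, edgeR) and MEF2C at 0.020 (adjusted p = 0.924, edgeR). CLOCK was lower with overlapping groups (−0.47, adjusted p = 0.0485, edgeR), a call lost on leaving out any library but Sev replicate 3 (adjusted p = 0.0536 to 0.142). CLOCK was called in 6 of the 16 settings, and was at −0.27 (adjusted p = 0.193, edgeR) with the GC and length trend removed. BMAL1, of the same list, rose from 14.8 ± 0.939 to 25.5 ± 3.55 CPM (0.79, adjusted p = 0.00235, edgeR, n = 3 per group). The progesterone receptor gene PGR, picked out after its values were seen as the gene farthest from 0 in this list, had at most 67 counts, with 0, 0.202 and 0.185 CPM in control and 0.717, 1.78 and 0.732 CPM in Sev libraries.

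Of 22 genes known as KLF targets, 19 passed the filter, 7 rose and 0 fell by edgeR's test (36.8% and 0%, against 22.1% and 21.5% of all tested features), with a median log2 fold change of 0.22. At an unadjusted p under 0.05, 1 gene, the cyclin gene CCNB1, was lower by edgeR (log2 fold change −0.23), and limma on FPKM called 1 gene lower. SMAD7, the inhibitor of TGF-beta signaling that KLF10 and KLF11 are known to repress, was at 6.74, 5.86 and 6.34 CPM in control and at 57.4, 75.2 and 44.9 CPM in Sev libraries. Its log2 fold change was 3.23 (SE 0.19, adjusted p = 6.67e-05, edgeR, n = 3 per group), larger than that of any of the 10 KLF genes. The polyamine enzyme gene ODC1 was at 132, 140 and 150 CPM in control and at 318, 337 and 308 CPM in Sev libraries (1.19, adjusted p = 9.49e-05, edgeR). S1PR1, the sphingosine phosphate receptor activated by KLF2 in T cells, was at 8.37, 12.04 and 9.97 CPM in control and at 33.3, 34.3 and 28.7 CPM in Sev libraries (1.66, adjusted p = 0.000239, edgeR), where KLF2 fell. THBD and NOS3, endothelial targets of KLF2, had at most 5 counts in any library.

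**Figure D4:**
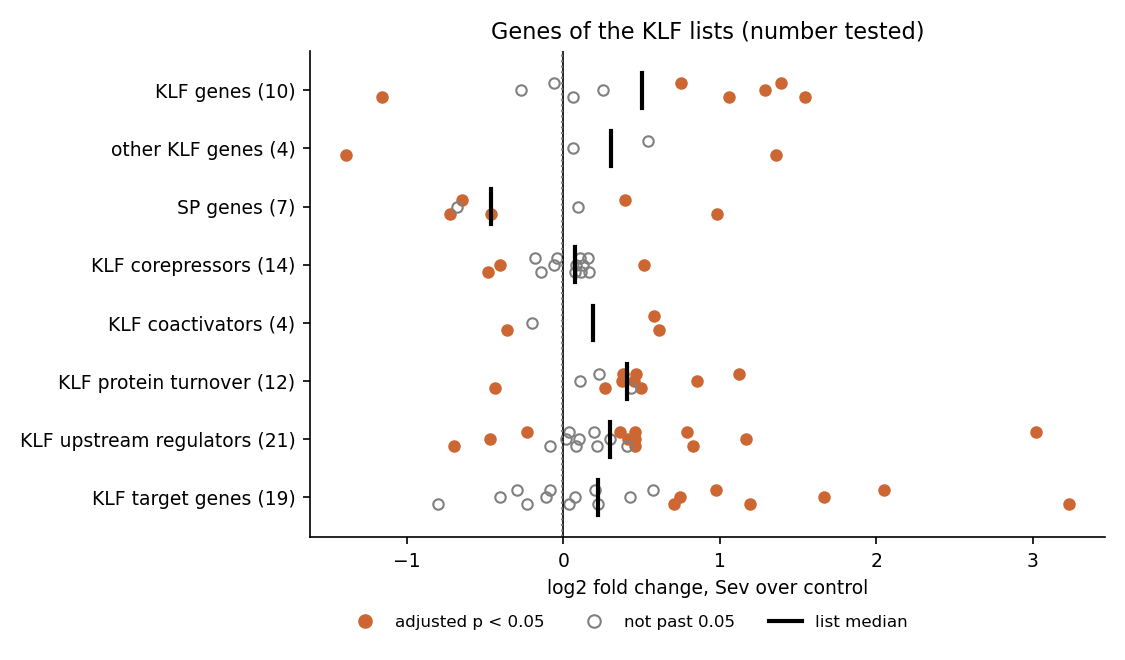
Log2 fold change of each tested gene of the KLF family and of 7 lists of related genes, with filled points at an adjusted p under 0.05, a black bar at the list median and a dotted line at the median of all tested features. The turnover list has the highest median of the 7 lists, 0.41, and the SP genes the lowest, −0.46.

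The calls of KLF2, KLF3, KLF7, KLF10 and KLF11 held in 16 of 16 alternative settings, that of KLF5 in 14, and KLF4, KLF6, KLF9 and KLF13 were called in 0. Leaving out Sev replicate 2, the highest Sev library for 9 of the genes, lowered the median log2 fold change of the family to 0.32, with 5 genes higher and 1 lower. It was 0.35 with library size only, and 0.31 and 0.33 by limma on FPKM with a pseudocount of 1 and 0.1, fits that also differ in model and filter.

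**Figure D5:**
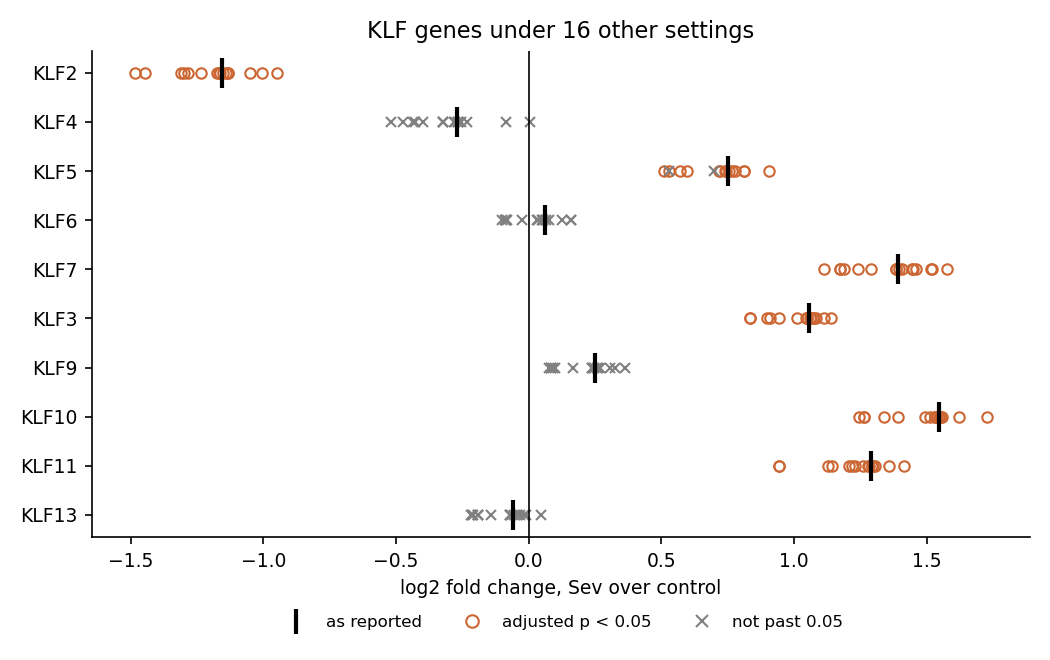
Log2 fold change of the 10 KLF genes as reported (black bars) and under 16 other settings, with open circles at an adjusted p under 0.05 and crosses otherwise. KLF2 lies below 0 and KLF3, KLF5, KLF7, KLF10 and KLF11 above 0 in every setting, while KLF4, KLF6 and KLF13 cross 0.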

How the data were processed

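Total RNA of U251 cells was sequenced in 3 control and 3 Sev libraries with strand-specific adapters. The authors deposited raw counts per gene and FPKM values (the implied length of a gene was equal within 3% over the libraries for 99.3% of features with at least 100 counts in each). The submitters' processing notes name bcl2fastq 2.19, featureCounts and the build hg18; parameters are not given in the sources used here. Ensembl identifiers were matched to symbols (42005 of 60564) and to GENCODE 29 on GRCh38 for positions (58457).

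In R 4.3.3, features were filtered by filterByExpr, normalized by TMM and tested two-sided with the quasi-likelihood test of edgeR 4.0.16, which was tested on simulated data. Standard errors are the log2 fold change over the square root of the F statistic. CPM hold no prior count. Intervals cover the 3 libraries per group. Of 10096 features with a mean of 500 counts or more, 55.1% to 73.6% differed beyond sampling noise between 2 replicates of a group. Features with fewer counts were not examined for this. Alternatives used DESeq2 1.42.0 and limma 3.58.1, as given in the closing section.

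The KLF genes, the gene lists and the rule for named genes were chosen with earlier results of these data known. Named were every KLF and SP gene with an adjusted p under 0.05, up to 3 genes per direction with the smallest p from each other list, transcripts named for KLF loci past the filter, and called features within 50 kb. SMAD4, TGFBR1, MAPK7, the MEF2 genes, BMAL1, CCNB1, FBXW7, KLF12, KLF15, MIR2355, NOS3, PGR, RCL1, THBD, WWP1 and the cell type markers fall outside this rule and were named after their values were seen. Promoter windows come from RefSeq for 8 of the 10 genes. KLF protein sequences were not used here.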

Additional observations from a re-analysis of the deposited data

How the results depend on the processing

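The 16 settings replaced TMM by the size factors of DESeq2 or by library size only, edgeR by DESeq2's Wald test, or the filter by none or by a minimum of 10 counts in each library. Others added the replicate number as a block, left out each library in turn, or used limma on FPKM with a pseudocount of 1 or 0.1 for features at 0.5 FPKM or more in 3 libraries or, with 1, unfiltered. A removal of each library's trend on GC content and length was chosen after seeing the data. Of 870 values over 55 named genes, 750 kept direction and call, 74 lost the call, 13 gained it (among them KLF12 with the GC and length trend removed, 0.27, MAPK7 in 5 settings and TGFBR1 without Sev replicate 1, −0.47) and 33 changed sign; where a change has no stated construction, its cause was not tested. Over all features, 6094 were higher as reported, and 3676 and 3623 by limma with a pseudocount of 1 and 0.1. Higher calls were 50.7% of all calls as reported, 38.3% with library size only and 35.4%, 35.7% and 40% by limma with 1, 0.1 and 1 unfiltered; library size only and these shifted the median log2 fold change by −0.14, −0.12, −0.14 and −0.12.

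KLF genes past the fold threshold were 3 by limma with a pseudocount of 1, filtered or not, against 5. The other KLF genes higher were 0 with library size only, DESeq2's Wald test, no filter, the replicate block and limma with 1 or 0.1, and lower 0 by limma with 1 or 0.1, where KLF8 was under the FPKM filter and not tested. Turnover genes higher were 5 with library size only and 4 in the limma fits, and upstream regulators higher 5 by limma unfiltered. Corepressors lower were 4 with library size only and in the limma fits and 1 with no filter or the replicate block, coactivators lower 2 and 0 in these settings, upstream regulators lower 1 with the replicate block, limma unfiltered or the GC and length trend removed, and targets lower 1 with library size only and in the limma fits.

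Leaving out 1 library gave 4 to 5 KLF genes higher, 1 lower and 4 to 5 past the fold threshold. Lists gave, for higher and lower, 0 to 1 and 1 other KLF genes, 2 and 2 to 4 SP genes, 1 and 1 to 3 corepressors, 2 and 0 to 1 coactivators, 6 to 7 and 1 turnover genes, 7 to 10 and 1 to 2 upstream regulators, and 6 to 8 and 0 to 1 targets.

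Leaving out 1 library put KLF4 between −0.52 and 0.0059, KLF6 between −0.10 and 0.16, and KLF13 between −0.22 and 0.045. Signs turned for genes that were not called: KLF4 at 0.0059 without control replicate 1, KLF13 at 0.045 without Sev replicate 3, and KLF6 at −0.083 with library size only, −0.087, −0.090 and −0.087 in the limma fits with 1, 0.1 and 1 unfiltered, −0.024 without control replicate 2 and −0.10 without Sev replicate 1. KLF12 was at −0.080, −0.066, −0.081 and −0.066 with library size only and in the same limma fits. MEF2A was at −0.10, −0.045, −0.044 and −0.045 and MEF2C at −0.13, −0.092, −0.13 and −0.092 in these, and leaving out 1 library put MEF2A between −0.12 and 0.38 (the latter called, without control replicate 3) and MEF2C between −0.13 and 0.10. TGFBR1 was at 0.082 with the GC and length trend removed and between −0.47 and 0.083 on leaving out 1 library. KLF3-AS1 was at −0.11 with library size only, −0.029 by limma unfiltered, −0.11 and −0.071 without control replicates 2 and 3 and −0.31 without Sev replicate 3.

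Deviations of same-numbered control and Sev libraries from their group means were hardly correlated (−0.0072, 0.0035 and 0.027). With 3 libraries per group this cannot tell whether a number marks a shared culture, which the labels do not say. The replicate block left 5 KLF genes higher and 1 lower, and 5228 and 5021 of all features.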
